A study of Rattus norvegicus with 9 samples.

Results

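The genes described here encode the proteins that start, spread and restrain mineral in bone. They are tissue-nonspecific alkaline phosphatase (Alpl), bone sialoprotein (Ibsp), osteopontin (Spp1), osteocalcin (Bglap), Ifitm5, Phospho1, Enpp1, Ank, osteonectin (Sparc) and matrix Gla protein (Mgp). They were picked by name from the deposited gene table of 32623 rows. Of the 10 names listed, 9 had a row, 1 row each, and all 9 passed the filter on low expression. The name Ank had no row: rat RefSeq gives Ank as a synonym of Ankh, which has a row, so Ankh is described beside the 9 and is not counted among them.

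Mineral forms on collagen laid down by osteoblasts, and its growth depends on the balance between phosphate and inorganic pyrophosphate, which blocks crystals. Alpl degrades pyrophosphate outside the cell, Enpp1 makes it there from nucleotides, the membrane protein Ankh raises its level outside the cell, and Phospho1 frees phosphate inside matrix vesicles. Ibsp and Spp1 are acidic phosphoproteins of the matrix, Ibsp favouring crystal formation and Spp1 restraining crystal growth, while Bglap and Mgp carry vitamin K-dependent calcium-binding residues.

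The libraries are poly(A) RNA-seq of femur from rats labelled as wild type, 3 from each of 3 groups. The treated group carries the label of Desertliving Cistanche herb, the next group is ovariectomized, an operation that removes the source of ovarian oestrogen, and the control group is normal rats, titled SD rat, the usual short form of Sprague-Dawley. The series title places the herb in ovariectomized rats, whereas the labels of the treated libraries do not themselves name the operation. The labels used here state no age, dose, duration or sham operation, and nothing in them ties a library to an animal of its own, so p-values measure the spread between these libraries. Libraries held 54992823 to 66531156 counts, and 13886 genes averaging 1 FPKM or more (fragments scaled by transcript length and library depth) were tested.

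None of the 9 genes passed an adjusted p of 0.05 in edgeR's quasi-likelihood test in any of the 3 comparisons, and DESeq2 called 0 of the 9 in each. In treated against control rats all 9 fitted log2 fold changes were below 0. Their median was -0.52 and their range -1.44 to -0.19, while over all tested genes the median was near 0 and 50% were lower. The edgeR test called 0% of all tested genes in this comparison, and DESeq2 called 153 genes. At an unadjusted p under 0.05 edgeR took 3 of the 9 (Ibsp, Enpp1 and Alpl) and 8.81% of all tested genes. Counts scaled by library size (CPM) did not overlap between the groups for 2 of the 9, Ibsp and Enpp1, both lower in treated rats, against 13.1% of all tested genes in either direction. Without treated replicate 2 the median was -1.07, and without control replicate 3 it was -0.28.

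In ovariectomized against control rats all 9 estimates were again below 0, with a median of -0.35 and a range of -1.16 to -0.06, and 51.3% of all tested genes were lower. The edgeR test called 0% of all tested genes, and DESeq2 called 59 genes. The unadjusted p was under 0.05 for 1 of the 9, Alpl, against 5.05% of all tested genes. The groups did not overlap in CPM for 1 of the 9, Ifitm5, which was lower in ovariectomized rats, against 8.94% of all tested genes. The median was -0.83 with ovariectomized replicate 3 left out, -0.23 with ovariectomized replicate 2 left out and -0.14 with control replicate 3 left out.

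In treated against ovariectomized rats 7 of the 9 estimates were below 0 and 2 (Ifitm5 and Mgp) above it, with a median of -0.07 and a range of -0.58 to 0.32, and 51.0% of all tested genes were lower. The edgeR test called 0% of all tested genes, and DESeq2 called 35 genes. At an unadjusted p under 0.05 edgeR took 0 of the 9 and 5.2% of all tested genes. The groups did not overlap in CPM for 1 of the 9, Enpp1, against 12.4% of all tested genes. The median turned positive when ovariectomized replicate 1 (0.015) or ovariectomized replicate 3 (0.14) was left out. The 3 comparisons share libraries, so their estimates are set side by side and are not independent of each other. With 3 libraries against 3, an exact 2-sided permutation test cannot give a p below 0.1.

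**Figure D1:**
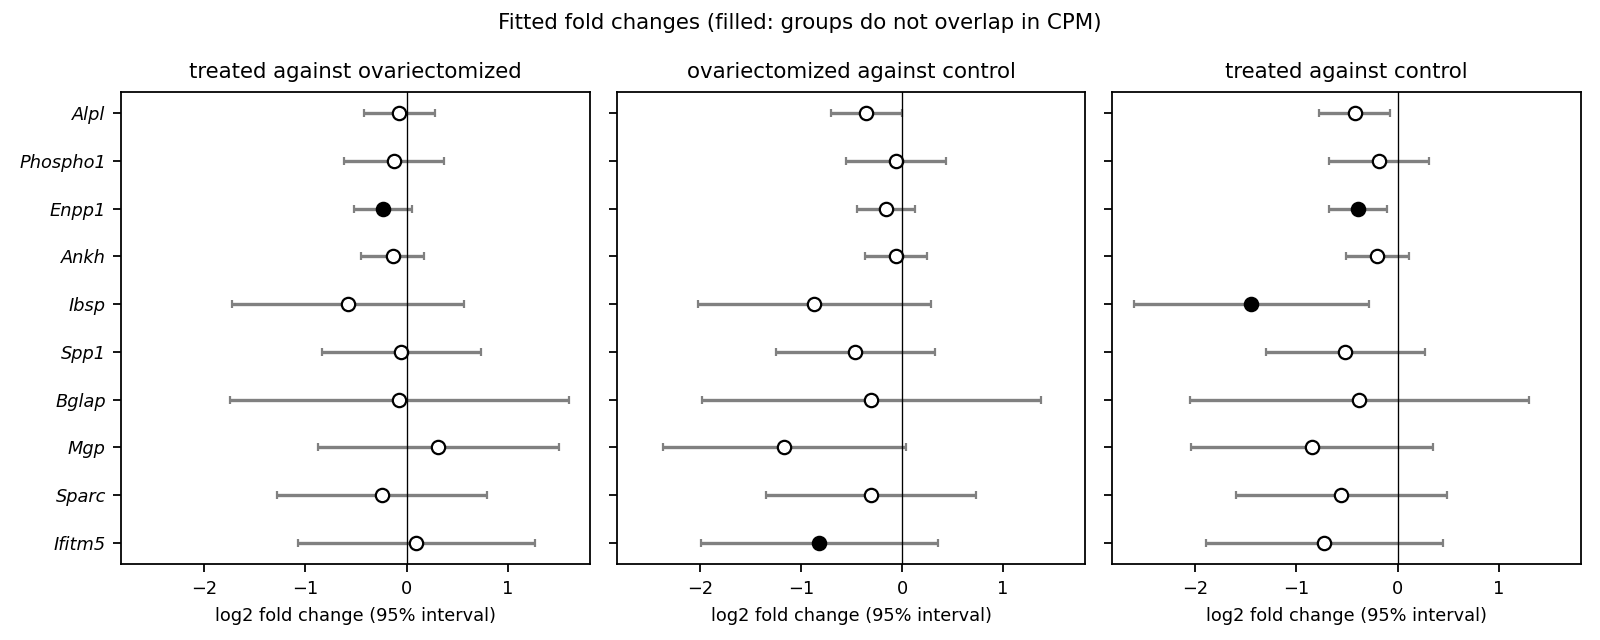
Fitted log2 fold changes (horizontal axis) with 95% intervals for the 9 genes and Ankh in the 3 comparisons, from edgeR over all 9 libraries; filled points mark groups that do not overlap in CPM. In treated against control rats all estimates lie below 0, from Ibsp at -1.44 to Phospho1 at -0.19, and most intervals cross 0.

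The genes spanned a wide range of abundance. By mean FPKM over the 9 libraries, a scale set per transcript length, the order was Sparc (606), Bglap (450.1), Spp1 (439), Ibsp (238), Mgp (204), Alpl (57.8), Phospho1 (37.1), Ankh (35.03), Enpp1 (11.4) and Ifitm5 (6.70). Neighbours in this order were not all separable: Bglap exceeded Spp1 in 5 of 9 libraries, Ibsp exceeded Mgp in 5 of 9, and Phospho1 exceeded Ankh in 6 of 9. Spp1 exceeded Ibsp in 8 of 9. Sparc exceeded Bglap in 9 of 9, although Spp1 lay above Sparc in treated replicate 3 and ovariectomized replicate 1.

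In the deposited table, whose genome build no source used here names, Alpl lies at chr5:156086497-156141537, Phospho1 at chr10:83636518-83643859, Enpp1 at chr1:21748261-21813371 and Ankh at chr2:80131563-80256954. Bglap lies at chr2:187741770-187742747, Sparc at chr10:40742400-40764185, Mgp at chr4:170856751-170860225 and Ifitm5 at chr1:213744796-213745748. No row of the table overlaps any of these genes.

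The pyrophosphate genes had the steadiest levels. Alpl, the enzyme that removes pyrophosphate, had 56.5, 53.0 and 48.4 FPKM in treated libraries, 59.8, 50.6 and 51.0 FPKM in ovariectomized libraries and 67.2, 50.6 and 82.9 FPKM in control libraries. Control replicates 1 and 3 stood highest, but control replicate 2 lay among the other groups, so the groups overlapped. For Alpl the log2 fold change was -0.42 ± 0.15 (SE) in treated against control rats (edgeR adjusted p = 0.516, DESeq2 0.240). It was -0.35 ± 0.15 in ovariectomized against control rats (edgeR adjusted p = 0.974) and -0.07 ± 0.15 in treated against ovariectomized rats. Without control replicate 3 the treated against control value was -0.28 and the ovariectomized against control value -0.20.

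Enpp1, the enzyme that makes pyrophosphate, had 9.75, 10.3 and 10.3 FPKM in treated libraries, 11.9, 10.05 and 12.8 FPKM in ovariectomized libraries and 10.9, 11.2 and 15.5 FPKM in control libraries. All treated libraries lay below all control libraries on both scales. Against ovariectomized libraries they did not overlap in CPM (41.3 to 42.8 in treated, 43.3 to 54.2 in ovariectomized) but overlapped in FPKM. The log2 fold change was -0.39 ± 0.13 in treated against control rats (95% interval -0.68 to -0.10; edgeR adjusted p = 0.485, DESeq2 0.181) and -0.23 ± 0.13 in treated against ovariectomized rats (edgeR adjusted p = 0.931). In ovariectomized against control rats it was -0.15 ± 0.13. Without control replicate 3 the treated against control value was -0.24 and the ovariectomized against control value -0.010.

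The ratio of Alpl to Enpp1 FPKM was 5.21 ± 0.554 in treated, 4.69 ± 0.613 in ovariectomized and 5.35 ± 0.814 in control libraries (SD, n = 3 each). Over the 9 libraries its highest value was 1.55 times its lowest. The ratio of these opposing enzymes overlapped between all 3 groups.

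Ankh, whose product raises pyrophosphate outside the cell, had 27.0, 37.5 and 35.5 FPKM in treated libraries, 38.3, 34.8 and 33.7 FPKM in ovariectomized libraries and 30.5, 36.5 and 41.3 FPKM in control libraries. Phospho1, the vesicle phosphatase, had 34.4, 42.1 and 29.9 FPKM in treated libraries, 31.1, 35.6 and 46.5 FPKM in ovariectomized libraries and 30.7, 47.9 and 35.2 FPKM in control libraries. Both overlapped between all groups. Ankh had log2 fold changes of -0.20 ± 0.14 in treated against control rats, -0.06 ± 0.13 in ovariectomized against control rats and -0.14 ± 0.14 in treated against ovariectomized rats. Phospho1 had -0.19 ± 0.22 (95% interval -0.68 to 0.31), -0.06 ± 0.22 and -0.13 ± 0.22 in the same comparisons, and without control replicate 2 the first was 0.046 and the second 0.16. Without treated replicate 1 Ankh was -0.079 in treated against control rats and -0.018 in treated against ovariectomized rats. The highest Phospho1 value, in control replicate 2, came from the library with the highest summed erythroid markers (8 genes tested, 3931 FPKM; 2137 to 2658 in treated, 2600.3 to 3024 in ovariectomized and 2485 to 3931 in control libraries). That is 1 library. The next highest Phospho1 libraries, ovariectomized replicate 3 and treated replicate 2, had erythroid sums of 2852 and 2658 FPKM. Ovariectomized replicate 2, with an erythroid sum of 3024 FPKM, had 35.6 FPKM of Phospho1. The erythroid markers' part in the Phospho1 level was not tested.

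**Figure D2:**
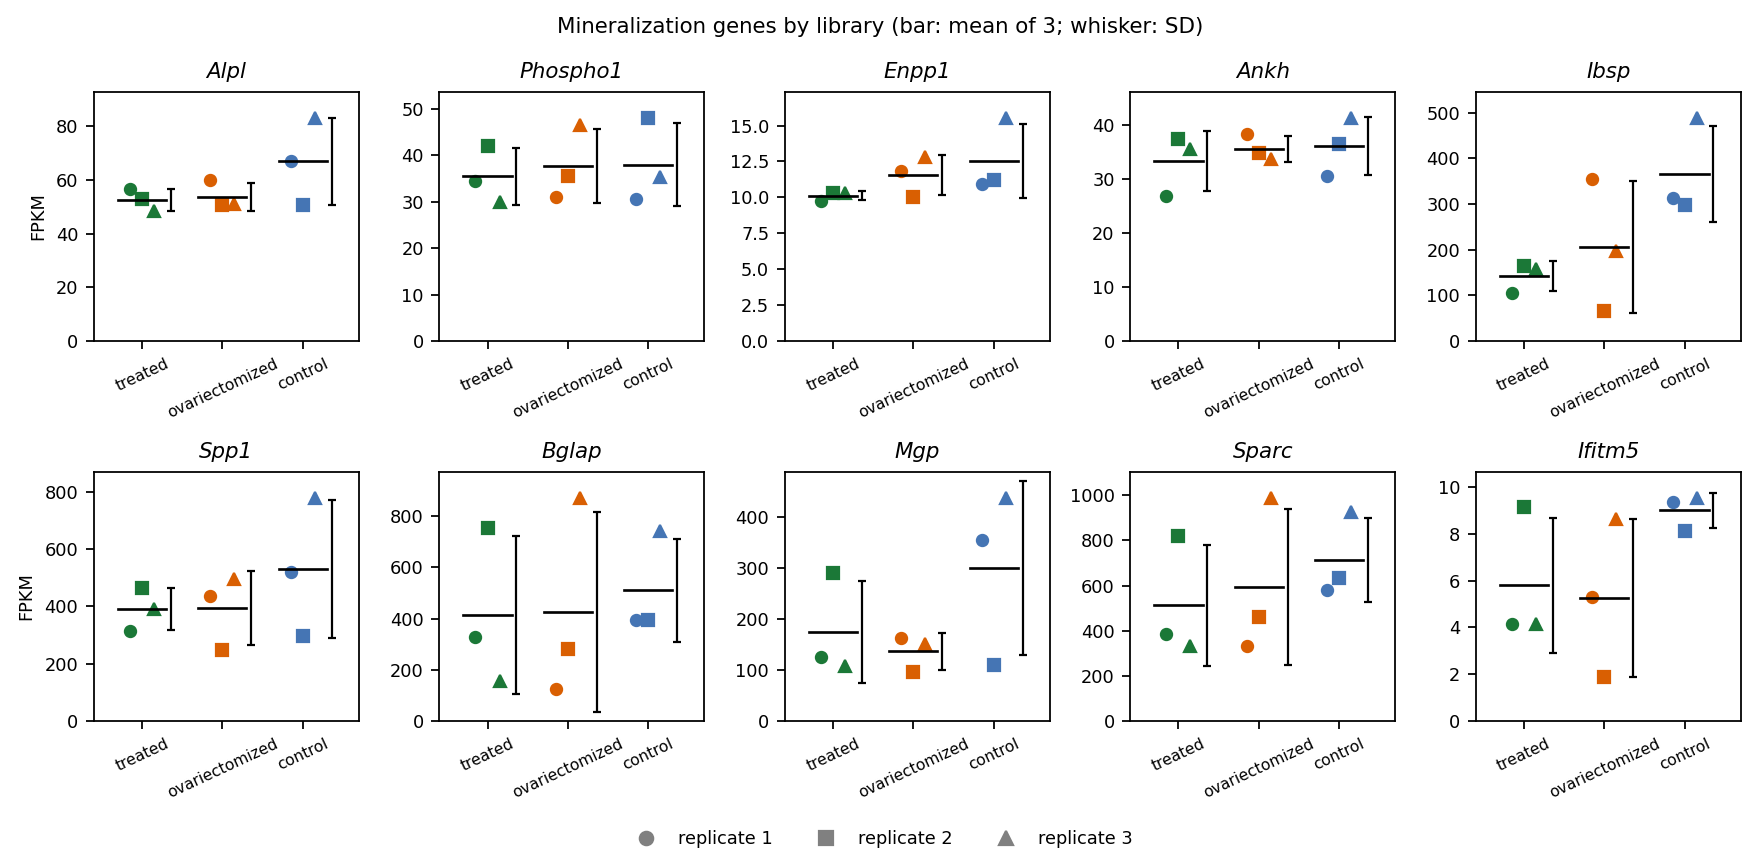
FPKM (vertical axes, each from 0) of each gene in every library, by group; symbols mark replicate numbers, horizontal bars the mean and whiskers the SD of 3 libraries. Ibsp in treated libraries (105 to 164) lies below all control libraries (298 to 487), while Bglap and Sparc spread widely inside every group.

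The largest estimate belonged to Ibsp, the sialoprotein of newly mineralizing matrix. It had 105, 164 and 157 FPKM in treated libraries, 354, 65.9 and 197 FPKM in ovariectomized libraries and 313, 298 and 487 FPKM in control libraries. The treated libraries were close together and all below the controls, while ovariectomized replicate 1 lay within the control range and ovariectomized replicate 2 below every treated library. The mean was 142 ± 32.2 FPKM in treated, 206 ± 144 FPKM in ovariectomized and 366 ± 105 FPKM in control libraries (SD, n = 3 each). The log2 fold change was -1.44 ± 0.51 in treated against control rats, with a 95% interval of -2.61 to -0.28 (edgeR adjusted p = 0.512, DESeq2 0.181), and it ranged from -1.56 to -1.22 with each library left out in turn. It was -0.87 ± 0.50 in ovariectomized against control rats and -0.58 ± 0.50 in treated against ovariectomized rats. Without ovariectomized replicate 1 these were -1.53 and 0.080, and without ovariectomized replicate 2 they were -0.45 and -0.99. In femur RNA, fewer cells of a type and less RNA per cell cannot be told apart, which holds for every gene here.

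Spp1, the phosphoprotein that restrains crystal growth and that is made by osteoclasts as well as osteoblasts, had 316, 465 and 392 FPKM in treated libraries, 437, 249 and 496 FPKM in ovariectomized libraries and 520.1, 296 and 777 FPKM in control libraries. Control replicate 3 was highest and ovariectomized replicate 2 lowest, and all groups overlapped. The log2 fold change was -0.52 ± 0.34 in treated against control rats, -0.46 ± 0.34 in ovariectomized against control rats and -0.05 ± 0.34 in treated against ovariectomized rats. The treated against control value was -0.79 without control replicate 2 and -0.18 without control replicate 3, and the ovariectomized against control value -0.74 and -0.13.

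Ibsp and Spp1 lie in the cluster of acidic matrix phosphoproteins on chromosome 14, both on the minus strand. The deposited table puts Spp1 at chr14:6673686-6679901 and Ibsp at chr14:6801204-6813945, 121302 bases apart, with Mepe (chr14:6782012-6793558) between them and Dmp1 (chr14:6889856-6900733) beyond Ibsp. Dspp, the dentin gene of the cluster, had 0 counts in all 9 libraries. Across libraries Ibsp and Spp1 had a Pearson r of 0.76 (log2 CPM, exact permutation p = 0.0166, adjusted over 45 pairs 0.118) and a Spearman rho of 0.77 (exact permutation p = 0.0214, adjusted 0.120). The r was 0.39 without control replicate 3 and ovariectomized replicate 2, the libraries farthest from the median of Ibsp, and 0.71 on deviations from the group means. Its size thus depended on these libraries, though leaving out extreme libraries narrows the range and tends by itself to lower r. The 250 bases before each start, shown because the genes are neighbours with different spread, are given 5′ to 3′ on the coding strand from RefSeq (build GRCr8), at chr14:5757243-5757492 for Ibsp and chr14:5619805-5620054 for Spp1.
Ibsp: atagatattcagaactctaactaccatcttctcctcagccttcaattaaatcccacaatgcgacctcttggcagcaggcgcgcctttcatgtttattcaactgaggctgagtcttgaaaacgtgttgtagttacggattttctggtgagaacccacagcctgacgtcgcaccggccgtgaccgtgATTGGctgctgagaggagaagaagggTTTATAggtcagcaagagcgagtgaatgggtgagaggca
Spp1: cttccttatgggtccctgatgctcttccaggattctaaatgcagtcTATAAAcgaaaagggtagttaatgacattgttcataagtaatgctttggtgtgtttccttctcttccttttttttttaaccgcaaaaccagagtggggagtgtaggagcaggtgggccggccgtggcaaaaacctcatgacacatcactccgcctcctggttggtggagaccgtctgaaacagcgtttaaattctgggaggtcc
Capitals mark the TATA box letters TATAAA or their reverse complement TTTATA, and the CCAAT box letters CCAAT or their reverse complement ATTGG. Ibsp holds TTTATA 39 to 34 bases and ATTGG 65 to 61 bases before its start. Spp1 holds TATAAA 204 to 199 bases before its start. TATAAA on either strand occurs in 12.9% and CCAAT on either strand in 34.0% of 33469 windows of the same length, and these matches are a description of the letters only.

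Bglap and Sparc moved together from library to library. Bglap, the osteocalcin gene of mature osteoblasts, had 327, 755 and 157 FPKM in treated libraries, 126, 281 and 870 FPKM in ovariectomized libraries and 395, 395 and 744 FPKM in control libraries. Treated replicate 2, ovariectomized replicate 3 and control replicate 3 were high, treated replicate 3 and ovariectomized replicate 1 were low, and the groups overlapped almost entirely. Sparc, which binds collagen and calcium, had 385, 821 and 331 FPKM in treated libraries, 333, 459 and 986 FPKM in ovariectomized libraries and 581, 633 and 926 FPKM in control libraries. The same libraries were highest and lowest as for Bglap.

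For Bglap the log2 fold change was -0.38 ± 0.73 in treated against control rats (95% interval -2.06 to 1.30), -0.31 ± 0.73 in ovariectomized against control rats and -0.07 ± 0.73 in treated against ovariectomized rats. The direction turned with 1 library left out, and without treated replicate 2 the treated against control value was -1.14. In treated against control rats it was 0.013 without treated replicate 3, in ovariectomized against control rats 0.13 without ovariectomized replicate 1, and in treated against ovariectomized rats 0.97 without ovariectomized replicate 3. For Sparc the estimate was -0.56 ± 0.45 in treated against control rats, -0.31 ± 0.45 in ovariectomized against control rats and -0.25 ± 0.45 in treated against ovariectomized rats. Without ovariectomized replicate 3 the last was 0.32. The treated against control value of Sparc was -1.07 without treated replicate 2 and -0.31 without treated replicate 3, and leaving out ovariectomized replicate 3 or 1 put the ovariectomized against control value at -0.88 or -0.028. The SD of log2 CPM within groups was 1.07 for Bglap, above that of 96.8% of all tested genes, and 0.64 for Sparc, above that of 92.4%.

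The summed osteoblast markers other than these genes (9 of 10 listed with a row, none at 0 in all libraries) spread in the same libraries. They summed to 275 to 948 FPKM in treated, 245 to 1171 FPKM in ovariectomized and 553 to 1164 FPKM in control libraries, Col1a1 making up most of the sum, and were highest in treated replicate 2, ovariectomized replicate 3 and control replicate 3. All 9 had estimates below 0 in treated against control rats (median -0.67) and in ovariectomized against control rats (median -0.52), and 0 passed edgeR's adjusted p. Their part in the levels of Bglap and Sparc was not tested.

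The windows before the start of Bglap (chr2:176137319-176137568) and Sparc (chr10:40038817-40039066), both on the minus strand of GRCr8 from RefSeq, are shown because these genes had the highest correlation of the set.
Bglap: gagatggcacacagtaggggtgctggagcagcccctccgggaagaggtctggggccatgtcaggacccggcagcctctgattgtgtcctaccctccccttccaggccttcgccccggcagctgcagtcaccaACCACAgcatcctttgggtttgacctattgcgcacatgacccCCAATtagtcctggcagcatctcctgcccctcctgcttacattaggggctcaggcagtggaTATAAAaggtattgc
Sparc: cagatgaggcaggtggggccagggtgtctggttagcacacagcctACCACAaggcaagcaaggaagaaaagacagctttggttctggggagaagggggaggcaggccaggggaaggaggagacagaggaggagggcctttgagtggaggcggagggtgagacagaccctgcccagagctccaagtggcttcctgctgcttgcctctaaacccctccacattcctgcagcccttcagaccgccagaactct
Capitals mark the TATA box letters TATAAA, the CCAAT box letters and the Runx core letters TGTGGT, which read ACCACA on the other strand; each motif was searched on both strands and no matches overlap. Bglap holds TATAAA 15 to 10 bases, CCAAT 76 to 72 bases and ACCACA 118 to 113 bases before its start. Sparc holds ACCACA 205 to 200 bases before its start and neither of the other motifs. TGTGGT on either strand occurs in 14.5% of all windows, and among the 8 of these 10 genes with a window only Bglap and Sparc hold these exact letters. Variant forms of the Runx site were not searched, so the other windows are not shown to lack one. The homeodomain letters TAATTA occur in 4.86% of all windows and in 0 of the 8.

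Mgp, an inhibitor of mineral in cartilage and vessel walls, had 126, 290.4 and 108 FPKM in treated libraries, 164, 96.0 and 150.0 FPKM in ovariectomized libraries and 354, 109.7 and 436 FPKM in control libraries. Control replicates 1 and 3 and treated replicate 2 were high, and control replicate 2 lay among the low libraries. The log2 fold change was -1.16 ± 0.53 in ovariectomized against control rats, the largest of the 9 in that comparison (95% interval -2.37 to 0.04; edgeR adjusted p = 0.974, DESeq2 0.697). It was -0.85 ± 0.52 in treated against control rats and 0.32 ± 0.52 in treated against ovariectomized rats. Without treated replicate 2 these were -1.42 and -0.26, and without control replicate 3 the treated against control value was -0.52.

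Chondrocyte markers stood high in the same libraries. The 15 listed markers, none at 0 in all libraries, summed to 88.7, 237 and 74.3 FPKM in treated libraries, 122, 104 and 136 FPKM in ovariectomized libraries and 235, 135 and 419 FPKM in control libraries. Acan, which encodes the main cartilage proteoglycan, had 5.78, 13.0 and 4.48 FPKM in treated libraries, 9.48, 4.78 and 7.46 FPKM in ovariectomized libraries and 16.9, 6.63 and 30.7 FPKM in control libraries. Col2a1, the main cartilage collagen, had 15.4 to 76.4 FPKM in treated, 25.3 to 32.8 FPKM in ovariectomized and 48.4 to 180.5 FPKM in control libraries. Of the 12 markers tested, 11 were lower in ovariectomized than control rats (median -1.67) and 12 were lower in treated than control rats (median -1.06), while 10 were higher in treated than ovariectomized rats (median 0.62), and 0 passed edgeR's adjusted p. Their part in the level of Mgp was not tested.

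Ifitm5, a small membrane protein of osteoblasts, had the fewest reads of the set, 44 to 268 counts a library. It had 4.13, 9.13 and 4.14 FPKM in treated libraries, 5.32, 1.88 and 8.64 FPKM in ovariectomized libraries and 9.38, 8.13 and 9.52 FPKM in control libraries. The control libraries were the closest together. Ovariectomized libraries lay below all controls in CPM (0.807 to 3.62 in ovariectomized, 3.68 to 4.16 in control), by a narrow margin, and overlapped them in FPKM. The log2 fold change was -0.82 ± 0.51 in ovariectomized against control rats, -0.72 ± 0.51 in treated against control rats and 0.10 ± 0.51 in treated against ovariectomized rats. The last was -0.39 without treated replicate 2 and -0.29 without ovariectomized replicate 2. Leaving out ovariectomized replicate 3 or 2 put the first at -1.35 or -0.43, and the treated against control value was -1.21 without treated replicate 2.

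The genes fell into unequal classes of spread between replicates. The SD of log2 CPM within groups was 0.17 for Enpp1, 0.18 for Ankh, 0.21 for Alpl and 0.30 for Phospho1, against a median of 0.18 over all tested genes. It was 0.50 for Spp1, 0.73 for Ifitm5, 0.76 for Ibsp and 0.78 for Mgp, above that of 88.3% to 94.6% of all tested genes. Enpp1, Ankh and Alpl lay near the typical gene, Phospho1 above 73.0% of all tested genes, and the matrix proteins and Ifitm5 higher still.

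Over the 45 pairs among the 9 genes and Ankh, Pearson r of log2 CPM was positive in 42, with a median of 0.55 and a range of -0.21 (Alpl with Phospho1) to 0.95. An exact permutation test over the 9 libraries, adjusted over the 45 pairs, passed 0.05 for 2 pairs. Bglap with Sparc had r = 0.95 (exact permutation p = 0.0001, adjusted 0.0050) and Spearman rho = 0.97 (exact permutation p = 0.00017, adjusted 0.0074). Its r was 0.93 without ovariectomized replicate 1 and treated replicate 3, and 0.97 on deviations from the group means. Spp1 with Mgp had r = 0.87 (exact permutation p = 0.0010, adjusted 0.0235) and rho = 0.88 (exact permutation p = 0.0031, adjusted 0.0676). Its r was 0.76 without control replicate 3 and ovariectomized replicate 2, and 0.85 on deviations from the group means. Alpl with Mgp had r = 0.80 (exact permutation p = 0.0095, adjusted 0.0904) and rho = 0.73 (exact permutation p = 0.0311, adjusted 0.140). Its r was 0.23 without control replicates 1 and 3, so its size depended on those libraries, and 0.74 on deviations from the group means. All of these genes share the same libraries, and the labels give no batch within which to repeat the correlations.

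**Figure D3:**
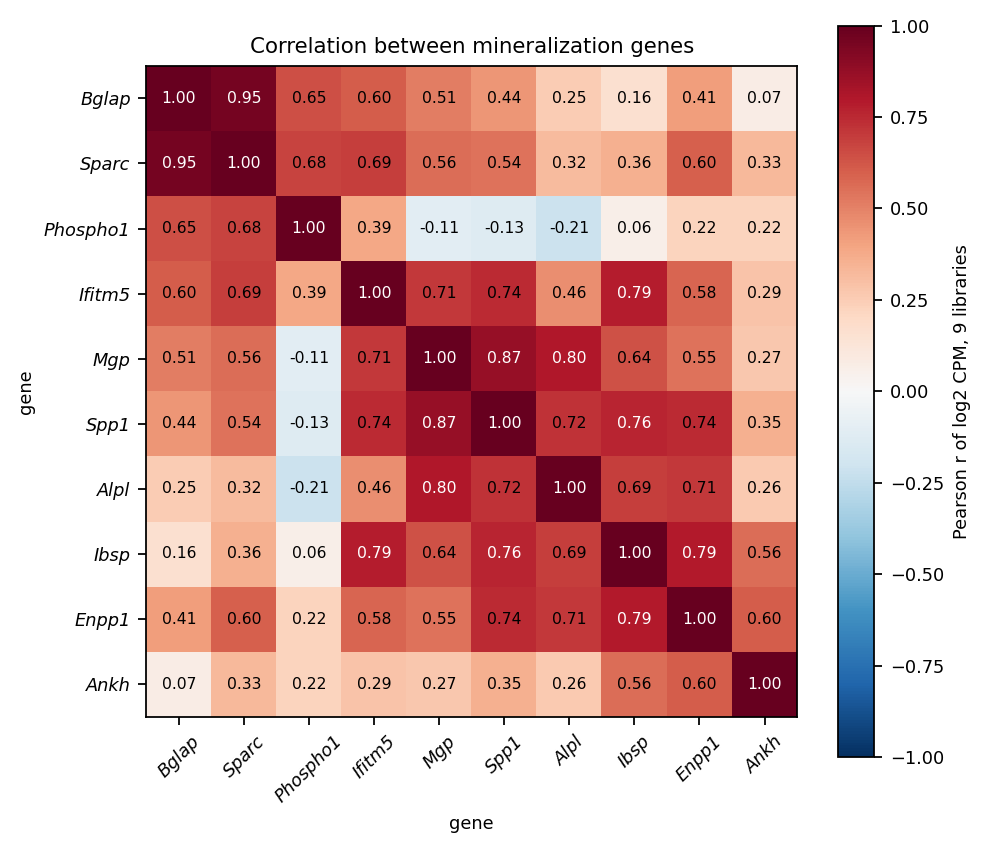
Pearson r of log2 CPM over 9 libraries for each pair of genes (both axes), from blue (-1) through white (0) to red (1). Bglap with Sparc is highest at 0.95, while Bglap with Ibsp is 0.16.

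Bglap and Ibsp, both products of mineralizing osteoblasts, did not keep to a common ratio. Bglap over Ibsp FPKM was 3.10, 4.59 and 1.002 in treated libraries and 0.356, 4.26 and 4.42 in ovariectomized libraries, a 12.9-fold range, while the control libraries held 1.26, 1.32 and 1.53. Their r was 0.16 (exact permutation p = 0.678, adjusted 0.744) and their rho 0.27 (exact permutation p = 0.493, adjusted 0.673). The control ratios were close together, and the treated and ovariectomized ratios lay on both sides of them.

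**Figure D4:**
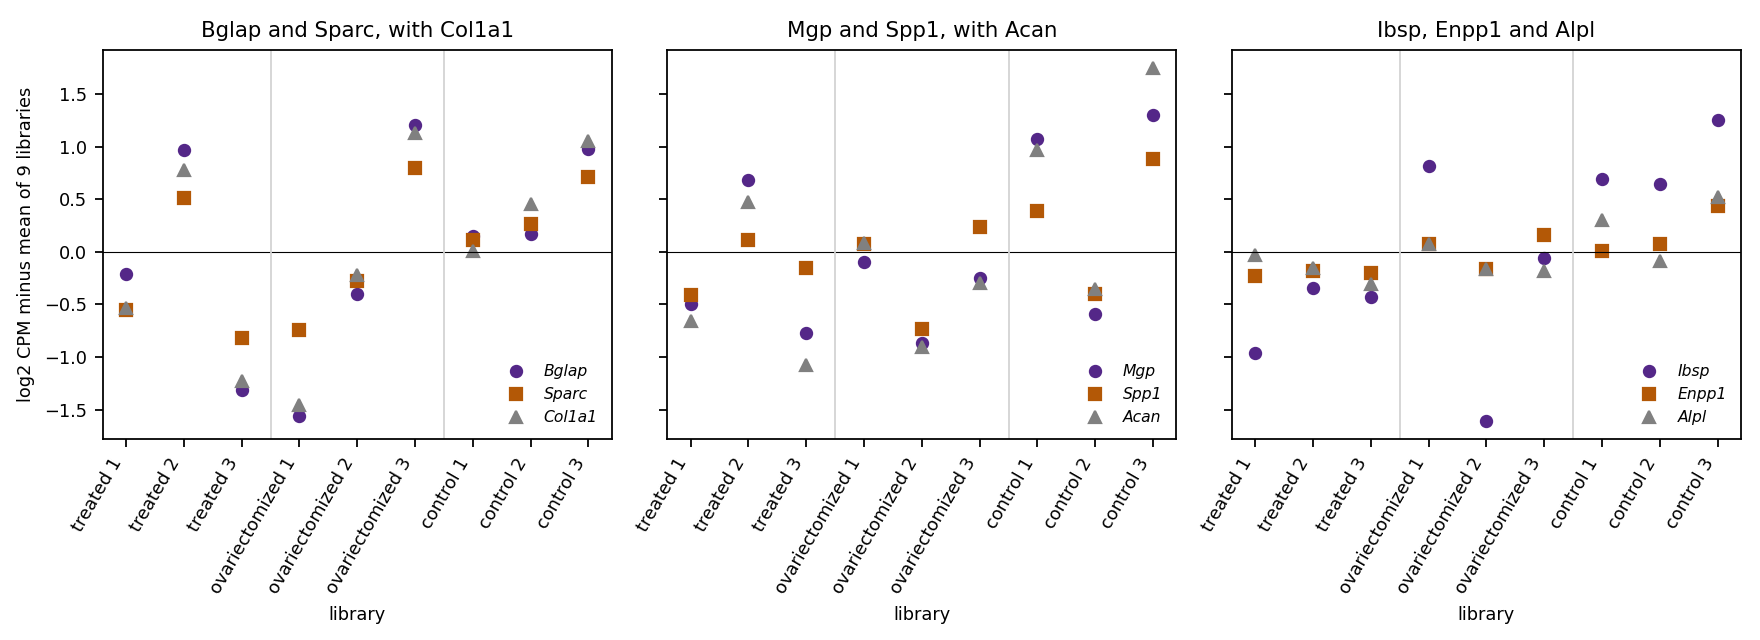
Log2 CPM of named genes minus their mean over 9 libraries (vertical axis) in each library (horizontal axis), with vertical lines between groups. Bglap, Sparc and Col1a1 are high in treated replicate 2, ovariectomized replicate 3 and control replicate 3, Mgp and Acan in control replicates 1 and 3, and Ibsp in all control libraries and ovariectomized replicate 1.

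The genes most alike in pattern, by Pearson r of log2 CPM over the 9 libraries among all tested genes, differed from member to member. For Bglap they were Col1a1 (0.98), Tigd5 (0.97) and Serpinf1 (0.96), and for Sparc Col1a1 (0.98), Cpz (0.97) and Smpd3 (0.97). For Mgp they were Snorc (0.98), PCOLCE2 (0.97) and Acan (0.97), of which Snorc and Acan are on the chondrocyte list. For Ibsp they were Fam149a (0.97), Arhgap31 (0.96) and Penk (0.96), and for Spp1 Mir568, Slc41a2 and Bcar1 (0.97 each). For Enpp1 they were Lum (0.96), Rftn2 (0.95) and Wwtr1 (0.94), and for Alpl Ddx41 (0.94), Atn1 (0.93) and Nckap5l (0.92). For Ifitm5 they were Col13a1 (0.95), Tmem132a (0.93) and Myo6 (0.92), for Phospho1 Mmadhc (0.94), Arhgef37 (0.93) and Ubxn1 (0.93), and for Ankh Rhot1 (0.96), Llgl1 (0.95) and Ext1 (0.94). On log2(FPKM + 1) the r of Ubxn1 with Phospho1 was 0.72. These values come from 9 libraries and 13886 candidate genes and are given as a description.

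Other genes of mineralization, 47 in 5 lists, had a row for 45, and 41 passed the filter. The edgeR test called 0 of the 41 in each comparison at the adjusted p. Of the 41, 28 were lower and 13 higher in treated than control rats (median -0.18), and 5 lower and 2 higher ones had an unadjusted p under 0.05, against 8.81% of all tested genes. In ovariectomized against control rats 30 were lower and 11 higher (median -0.11), with 1 and 1 under that p, against 5.05% of all tested genes. In treated against ovariectomized rats 24 were lower and 17 higher (median -0.07), with 1 and 0, against 5.2% of all tested genes. Below, the fold change of a gene named from these lists is given in the comparison where its unadjusted edgeR p was smallest. A change of comparison between genes is therefore no difference between them.

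The list of matrix proteins and their processing had the lowest median of the 5 in treated against control rats. Of its 10 tested genes, 9 were lower in treated than control rats, with a median of -0.63. Dmp1, a phosphoprotein of osteocytes, had 37.4, 53.3 and 55.1 FPKM in treated libraries, 58.4, 29.6 and 101 FPKM in ovariectomized libraries and 74.2, 95.7 and 63.5 FPKM in control libraries, so treated and control libraries did not overlap (log2 fold change -0.78 ± 0.39, edgeR adjusted p = 0.605). Phex, an osteocyte protease whose loss causes a form of rickets in humans, had -0.99 ± 0.41, and Omd, a keratan sulfate proteoglycan of bone, -0.75 ± 0.30. Col1a1, the main bone collagen chain, had -0.65 ± 0.69, which was -1.41 without treated replicate 2 and -0.30 without treated replicate 3. Clec3b, which encodes tetranectin, ran the other way, with 28.1, 21.0 and 37.6 FPKM in treated libraries, 26.6, 26.2 and 23.8 FPKM in ovariectomized libraries and 17.1, 13.2 and 5.87 FPKM in control libraries. Its log2 fold change was 1.16 ± 0.37 in treated against control rats (edgeR adjusted p = 0.485, DESeq2 0.0883).

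Among regulators of the member genes, 8 of 9 tested were lower in treated than control rats (median -0.33) and 9 of 9 were lower in ovariectomized than control rats (median -0.38). Runx2, the master regulator of osteoblasts, had -0.38 ± 0.17 in ovariectomized against control rats (edgeR adjusted p = 0.974), and Sp7, which acts after it, -0.67 ± 0.34 in treated against control rats. Sp7 was -1.05 without treated replicate 2 and -0.44 without control replicate 3. Mean FPKM in treated, ovariectomized and control libraries was 9.79, 9.09 and 11.5 for Runx2 and 5.52, 5.56 and 8.35 for Sp7. Vdr, the vitamin D receptor, had -1.12 ± 0.36 (edgeR adjusted p = 0.488, DESeq2 0.0838) in treated against control rats, and all treated libraries lay below all control libraries. Runx2 and Sp7 are also on the osteoblast marker list.

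Of 9 tested genes of phosphate and pyrophosphate handling, 2 were lower and 7 higher in treated than ovariectomized rats. In ovariectomized against control rats 5 were lower and 4 higher. In treated against control rats the list leaned neither way, with 4 lower and 5 higher. Slc20a1, a phosphate carrier, had -0.18 ± 0.09, Smpd3, a sphingomyelinase needed for bone mineral in mice, -0.91 ± 0.56, and Entpd1, which breaks down extracellular nucleotides, 0.29 ± 0.09 (edgeR adjusted p = 0.476). Of the vitamin K cycle and mineral inhibitors 5 of 7 were lower, Gas6 at -0.52 ± 0.31, and Vkorc1, which recycles vitamin K, had -0.26 ± 0.19 in ovariectomized against control rats. Of the vesicle and calcium-binding genes 2 of 6 were lower in treated than control rats, and Stim1, a calcium sensor, had 0.32 ± 0.15 in treated against ovariectomized rats. With 1 library left out, Smpd3 was -1.65 without treated replicate 2, Slc20a1 -0.12 without control replicate 2 and Gas6 -0.33 without control replicate 1. Leaving out control replicate 2 put Vkorc1 at -0.41, and leaving out ovariectomized replicate 2 put it at -0.11. Stim1 was 0.13 without treated replicate 3.

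Car2, the carbonic anhydrase of osteoclasts and red cell precursors, had 652, 822 and 770.5 FPKM in treated libraries, 905, 978 and 896 FPKM in ovariectomized libraries and 846, 1234 and 1087 FPKM in control libraries, so treated libraries lay below all others. Its log2 fold change was -0.59 ± 0.15 in treated against control rats (edgeR adjusted p = 0.469), and DESeq2 passed it there at an adjusted p of 0.0205. All 8 erythroid markers tested were lower in treated than control rats (median -0.45). The osteoclast markers summed to 1138 to 1596 FPKM in treated, 1376 to 1660 FPKM in ovariectomized and 1497 to 1957 FPKM in control libraries. Car2 is itself on the osteoclast list, so these sums are no separate reading. It made up 652 of 1138 FPKM in treated replicate 1 and 1234 of 1627 FPKM in control replicate 2. The osteoclast enzyme Acp5 had 86.1 to 215 FPKM in treated, 85.3 to 199 FPKM in ovariectomized and 117 to 272 FPKM in control libraries, and Ctsk overlapped between the groups likewise. Their part in the level of Car2 was not tested.

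**Figure D5:**
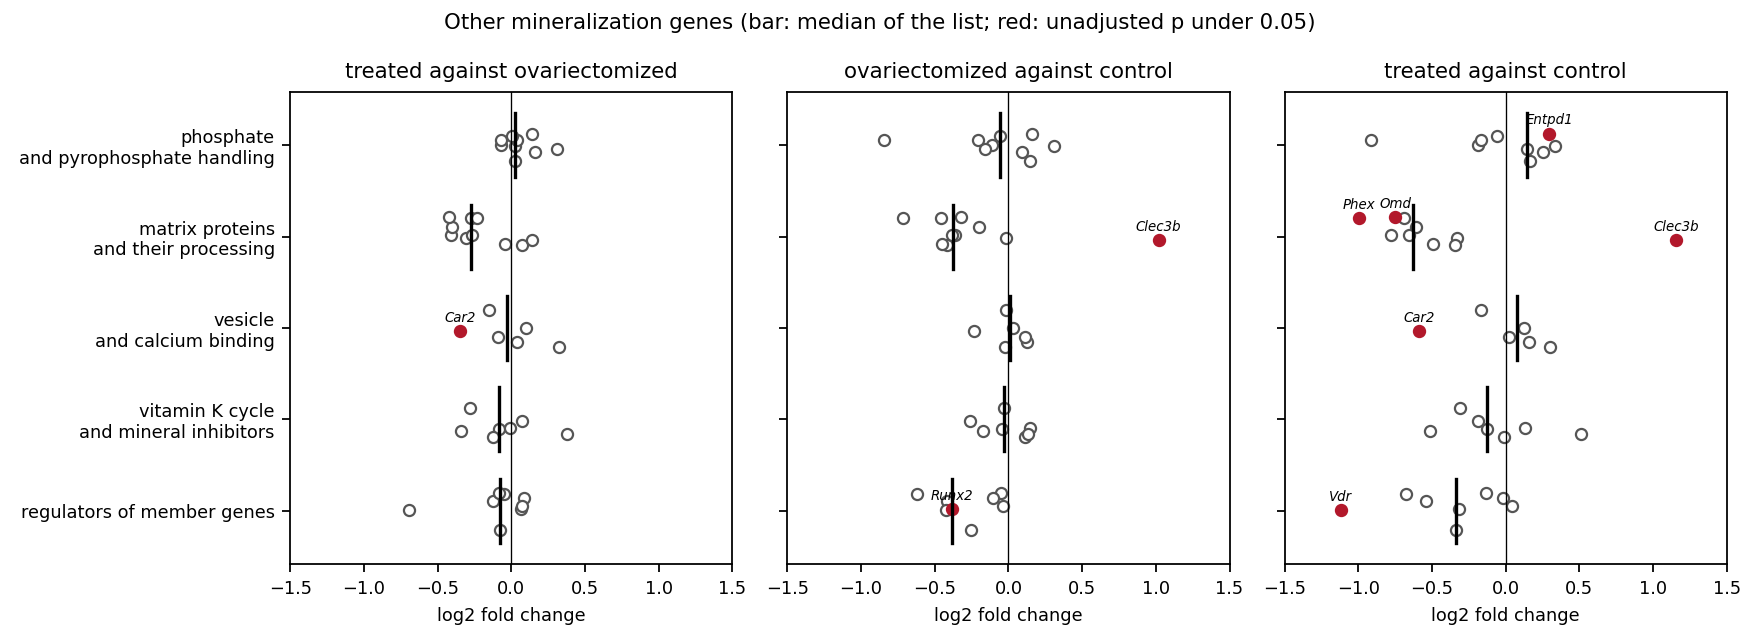
Fitted log2 fold changes (horizontal axis) of the 41 other mineralization genes tested, less 1 that is not drawn, by list (vertical axis), in the 3 comparisons; bars mark the medians of all genes tested in a list and red points an unadjusted p under 0.05. The matrix list lies lowest in treated against control rats (median -0.63), with Clec3b apart at 1.16.

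Markers of other cell types had unequal ranges in the groups. All 9 adipocyte markers and all 10 skeletal muscle markers tested had estimates above 0 in treated against control rats (medians 1.23 and 0.63) and in ovariectomized against control rats (medians 1.28 and 1.71), and 0 passed edgeR's adjusted p. Adipocyte markers summed to 802 to 1427 FPKM in treated, 840 to 1126 FPKM in ovariectomized and 202 to 615 FPKM in control libraries. Adipoq among them had 109 to 188 FPKM in treated, 83.6 to 163 FPKM in ovariectomized and 17.5 to 83.0 FPKM in control libraries, and in CPM ovariectomized replicate 3 (176) lay below control replicate 1 (185). Skeletal muscle markers summed to 544 to 1083 FPKM in treated, 719 to 3325 FPKM in ovariectomized and 222 to 718 FPKM in control libraries, with Acta1 at 161 to 411 FPKM in treated, 235 to 1515 FPKM in ovariectomized and 50.8 to 205 FPKM in control libraries. Osteocyte markers summed to 154 to 263 FPKM in treated, 139 to 287 FPKM in ovariectomized and 247 to 273 FPKM in control libraries. All 7 osteocyte markers tested had estimates below 0 in each comparison, and 0 passed edgeR's adjusted p. Their medians were -0.37 in treated against control, -0.20 in ovariectomized against control and -0.28 in treated against ovariectomized rats. Their marker Sost overlapped between all groups, whereas Dmp1, also on the list, did not overlap between treated and control libraries. No marker of these lists was at 0 in all libraries, and their part in the lower estimates of the mineralization genes was not tested. The 9 mineralization genes together took 0.205%, 0.370% and 0.204% of all counts in treated libraries, 0.257%, 0.197% and 0.414% in ovariectomized libraries and 0.344%, 0.298% and 0.524% in control libraries, so treated replicate 2 and ovariectomized replicate 3 lay within the control range.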

How the data were processed

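Poly(A) RNA from rat femora was sequenced in 9 libraries, 3 from each of the treated, ovariectomized and control groups. The authors deposited whole-number counts and FPKM values per gene in 1 table, per the file headers; FPKM were scaled by the authors for length and depth, and how the counts were made is not stated. The tools fastp, HISAT2 and StringTie are listed, with no versions, per the submitters' processing notes, and no source used here names the genome build. For a count of 0 the deposited FPKM is 0.0001.

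Genes averaging 1 FPKM or more (13886 of 32623) entered 1 edgeR quasi-likelihood fit (edgeR 4.0.16, R 4.3.3, TMM scaling) over all 9 libraries with 3 contrasts and Benjamini-Hochberg adjustment over all tested genes at 0.05. The common dispersion corresponded to a biological coefficient of variation of 0.262 (prior degrees of freedom 2.37). A fold change carries the standard error of the quasi-likelihood fit, that is the size of the log2 fold change over the square root of the F statistic, and a 95% interval from it. CPM are TMM-scaled. The fit was tested on simulated data, where it called 48% to 61% of 2-fold and 88% to 91% of 4-fold changes. It made 4 to 9 false calls in a comparison. These shares are for genes drawn at random above a minimum count, and not for the 9 genes. Totals of 54992823 to 66531156 counts gave Ifitm5 the fewest counts of the 9 genes, 44 to 268 a library. Alternatives were DESeq2 1.42.0, limma 3.58.1 on log2(FPKM + 1) and log2(FPKM + 0.1), median-of-ratios scaling, other filters, only the 2 groups compared, a replicate block, and leaving out each library.

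Named were the 10 listed genes in all comparisons, in each of 5 other mineralization lists the 2 genes with the smallest unadjusted p, always Runx2, Sp7, Col1a1, Dmp1, Phex, Slc20a1 and Smpd3, for each listed gene the 3 genes of highest Pearson r, and defining markers beside marker lists; 1 gene of this rule is not reported here. Dspp and Mepe were named for their position beside Ibsp, after their values were seen. The genes and lists were chosen with earlier results of these data known. Correlations used exact permutation over all orders of the 9 libraries. RefSeq promoter windows (GRCr8) matched 8 of the 10 genes, all except Enpp1 and Mgp.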

Additional observations from a re-analysis of the deposited data

How the results depend on the processing

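Ifitm5 had the fewest counts of the 9 genes, 44 to 268 a library, and what sets the width of its interval was not tested. None of the 9 genes passed the threshold under any alternative run in any comparison. Over all tested genes edgeR called 0 in each comparison. In treated against control rats DESeq2 called 153, a fit of only the 2 groups called 1, and leaving out 1 library gave 0 to 3. In ovariectomized against control rats these counts were 59, 2 and 0 to 4, and in treated against ovariectomized rats 35, 1 and 0 to 2. The cause of these differences was not tested. With 1 library left out, the median of the 9 genes ran from -1.07 to -0.28 in treated against control rats, -0.83 to -0.14 in ovariectomized against control rats and -0.29 to 0.14 in treated against ovariectomized rats.

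In treated against ovariectomized rats leaving out 1 library turned the direction of 8 genes, with ranges of -0.14 to 0.015 for Alpl, -0.99 to 0.080 for Ibsp, -0.28 to 0.14 for Spp1, -0.84 to 0.97 for Bglap, -0.39 to 0.63 for Ifitm5, -0.26 to 0.040 for Phospho1, -0.76 to 0.32 for Sparc and -0.26 to 0.57 for Mgp. In ovariectomized against control rats the ranges that crossed 0 were -1.35 to 0.13 for Bglap, -0.23 to 0.16 for Phospho1 and -0.16 to 0.012 for Ankh. In treated against control rats they were -1.14 to 0.013 for Bglap and -0.32 to 0.046 for Phospho1. Apart from leaving out libraries, the direction turned for Spp1 and Bglap in treated against ovariectomized rats, with limma and with the replicate block: limma gave 0.031 for Spp1 and 0.11 for Bglap with either pseudocount. Car2 passed in treated against control rats under DESeq2 alone (adjusted p = 0.0205).

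Same-numbered libraries had correlations of their deviations from group means between -0.13 and 0.18, and differently numbered ones between -0.17 and 0.14. Deviations within a group of 3 sum to 0, which ties these correlations together, so they cannot settle whether replicate numbers pair the libraries. With the replicate number as a block, edgeR called 0 genes in each comparison, the medians of the 9 genes were -0.42 in treated against control, -0.44 in ovariectomized against control and -0.07 in treated against ovariectomized rats, and Spp1 (0.036) and Bglap (0.25) turned positive in the last.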
